A study of Mus musculus with 6 samples.

Results

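The 44 genes described here encode proteins that copy DNA or divide the cell. They were chosen by name, with no measured value in the rule, but with earlier results of these data known. All 44 were among the 23016 genes of the deposited count table. They fall into a replication set of 13 genes (Mcm2, Mcm3, Mcm4, Mcm5, Mcm6, Mcm7, Gins2, Pcna, Rrm1, Rrm2, Tyms, Tk1 and Ccne2) and a mitotic set of 31 genes, from the cyclins and kinases of mitotic entry to the motors of the spindle and the proteins of condensed chromosomes. The cells came from wild-type mice. 4 marrow libraries were made from cells enriched for Gr1+ and c-kit+ fractions: untreated young, untreated aged, young 24 h after middle cerebral artery occlusion (an experimental stroke), and aged 24 h after the occlusion. 2 blood libraries, from untreated young and untreated aged mice, held sorted CD11b+ Ly6G- and CD11b+ Ly6G+ cells. Each group is 1 library, and neither the ages in months nor the number of animals behind a library is given in the sources used here. The controls of the stroke libraries are untreated mice.

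A dividing cell first loads the ring-shaped MCM helicase onto its replication origins, makes deoxynucleotides and copies its DNA, and only then builds a spindle and separates the chromosomes. Genes of the first phase are classically transcribed under E2F factors around the start of DNA synthesis, and genes of the second under the DREAM and B-MYB/FOXM1 complexes, which read a short element called CHR, often near a CCAAT box bound by NF-Y. In the marrow, neutrophils are made from granulocyte progenitors that pack azurophil granules (Elane, Mpo), through dividing pre-neutrophils that begin the specific granules (Ltf, Camp, Ngp), to immature and mature cells that no longer divide.

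Promoters of 4 members are shown because they carry these elements in the 2 sets. RefSeq promoter sequences (GRCm38.p6, from 250 bases before to 50 after the start) matched 35 of the 44 members, 10 of the replication and 25 of the mitotic set. Each line below gives the 250 bases before the start, read 5′ to 3′ on the gene's strand. In Mcm5 and Mcm6 the capitals mark matches to an E2F site, and in Top2a and Mki67 they mark matches to CHR or a CCAAT box.
Mcm5 (chr8:75109259-75109508, strand +): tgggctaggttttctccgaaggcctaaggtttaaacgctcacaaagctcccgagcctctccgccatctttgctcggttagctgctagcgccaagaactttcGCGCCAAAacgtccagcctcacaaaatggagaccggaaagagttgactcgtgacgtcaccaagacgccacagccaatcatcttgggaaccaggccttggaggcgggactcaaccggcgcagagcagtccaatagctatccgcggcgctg
Mcm6 (chr1:128359706-128359955, strand -): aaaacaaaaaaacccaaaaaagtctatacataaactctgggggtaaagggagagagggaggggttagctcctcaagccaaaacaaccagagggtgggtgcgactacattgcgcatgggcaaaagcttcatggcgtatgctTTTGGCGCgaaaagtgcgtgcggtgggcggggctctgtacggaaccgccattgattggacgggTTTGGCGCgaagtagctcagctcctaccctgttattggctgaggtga
Top2a (chr11:99024190-99024439, strand -): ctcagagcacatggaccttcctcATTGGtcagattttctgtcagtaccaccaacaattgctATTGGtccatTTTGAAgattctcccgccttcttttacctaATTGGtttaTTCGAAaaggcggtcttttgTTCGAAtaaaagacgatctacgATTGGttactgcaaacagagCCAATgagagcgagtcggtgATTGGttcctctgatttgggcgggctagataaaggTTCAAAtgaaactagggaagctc
Mki67 (chr7:135716380-135716629, strand -): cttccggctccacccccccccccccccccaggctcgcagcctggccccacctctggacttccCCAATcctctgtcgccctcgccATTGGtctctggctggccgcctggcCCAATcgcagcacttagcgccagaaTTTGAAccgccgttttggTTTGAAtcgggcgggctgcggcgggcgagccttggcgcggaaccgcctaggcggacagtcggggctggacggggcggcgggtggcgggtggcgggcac
Both strands were searched, for TTTGAA or TTCGAA (CHR), for CCAAT, and for TTTCCCGC, TTTGGCGC or TTCCCGCC (E2F site), of which the first and the third can overlap. A CHR match lay in 21 of 25 mitotic promoters (84.0%), in 2 of 10 replication promoters (20%) and in 17.5% of the 12663 promoters of genes in the table. CHR and CCAAT occurred together in 20 of 25 mitotic promoters (80.0%), in 2 of 10 replication promoters (20%) and in 8.32% of all. An E2F match lay in 5 of 10 replication promoters (50%), in 0 of 25 mitotic promoters and in 6.22% of all. CCAAT alone separated the sets least, at 88.0% of mitotic, 80.0% of replication and 42.0% of all promoters. A match is a string of letters and does not show binding.

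The marrow libraries held 72743805 (steady young), 68455949 (steady aged), 31015927 (stroke young) and 43789122 (stroke aged) unique molecular identifiers (UMIs, tags that count captured transcripts). After filters, 7915, 6182, 1588 and 2154 cells remained in them, and 1861 and 5239 in the blood libraries. The filters before doublet removal, with a minimum of 2000 UMIs set after depth was seen, took 1260 of 2858 deposited cells in stroke young and 845 of 3017 in stroke aged, against 5 of 8213 in steady young and 3 of 6389 in steady aged. Pairs of libraries shared 5 to 21 cell barcodes. Cells were placed by summed marker genes that include no member, into gates called stem/progenitor (Cd34, Kit and others), granulocyte progenitor (azurophil granule genes high), early pre-neutrophil (specific granule genes on, azurophil genes still present), late pre-neutrophil (Fcnb and Cebpe on, azurophil genes low), immature neutrophil (specific granule genes with little Fcnb, Cebpe or azurophil genes) and, outside this line, monocyte, erythroid and plasmacytoid dendritic. The smallest gate of the neutrophil line was the early pre-neutrophil, with 239, 138, 16 and 33 cells. The border between late pre-neutrophils and immature neutrophils is a range: 19.5% and 16.6% of their cells lay within 20% of the marker threshold that divides them. The stroke libraries stood apart in depth within a gate. Granulocyte progenitors held 12453 and 16480 UMIs per cell in the steady-state libraries against 44722 and 41568 in the stroke libraries, and the highest mitochondrial share among deposited cells was 4.91% and 4.99% against 9.90% and 9.95%.

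Along the neutrophil line the 2 sets peaked at different stages. Levels below are CPM, the UMIs of a gene scaled to a common total, in the summed cells of a gate after TMM scaling (TMM sets libraries and gates to a common centre by the genes that differ least), given in the order steady young, steady aged, stroke young and stroke aged. The replication set summed to 1014, 1002, 763 and 753 in stem/progenitor cells and to 1294, 1364, 1635 and 1579 in granulocyte progenitors. It was 1541, 1625, 1533 and 1617 in early pre-neutrophils, 1183, 994, 979 and 984 in late pre-neutrophils and 398, 353, 218 and 271 in immature neutrophils. Replication genes were thus highest in the granulocyte progenitor or early pre-neutrophil gate in every marrow library, and on plain CPM in granulocyte progenitors in every one. The mitotic set summed to 2489, 2195, 2002 and 1844 in stem/progenitor cells and 2489, 2570.1, 2795 and 2595 in granulocyte progenitors. It then stood at 4411, 4859.7, 6055 and 5308 in early pre-neutrophils, 7531, 6887, 6780.4 and 6911 in late pre-neutrophils and 3255, 2849.7, 1732 and 2895 in immature neutrophils. On this scale mitotic genes were highest in the late pre-neutrophil gate in every library. On plain CPM, without TMM, this held in 3 libraries, and in stroke young the mitotic set was at 5347 in early and 4802 in late pre-neutrophils. A gate's summed level cannot tell a larger share of dividing cells from more RNA per dividing cell. Scaling was computed anew for each set of gates compared, so scaled levels of a gene are comparable within a comparison and not between the stage, lineage and stroke results.

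The number of mitotic UMIs per replication UMI does not depend on the scaling. It was 2.46, 2.19, 2.63 and 2.45 in stem/progenitor cells and lowest in granulocyte progenitors, at 1.92, 1.88, 1.71 and 1.64. It was 2.86, 2.99, 3.95 and 3.28 in early pre-neutrophils, 6.36, 6.93, 6.92 and 7.03 in late pre-neutrophils and 8.17, 8.06, 7.93 and 10.70 in immature neutrophils. As a mean over the 4 marrow libraries it was 1.79 ± 0.13 in granulocyte progenitors and 6.81 ± 0.30 in late pre-neutrophils (SD, n = 4 libraries), and the 2 gates did not overlap. Late pre-neutrophils and immature neutrophils (8.71 ± 1.33, SD, n = 4) did not overlap either, with the stroke aged library setting the upper end. The ratio in erythroid cells was 2.04 ± 0.20, near that of granulocyte progenitors, and it was 4.21 ± 0.28 in monocytes and 4.03 ± 1.17 in plasmacytoid dendritic cells (SD, n = 4).

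**Figure D1:**
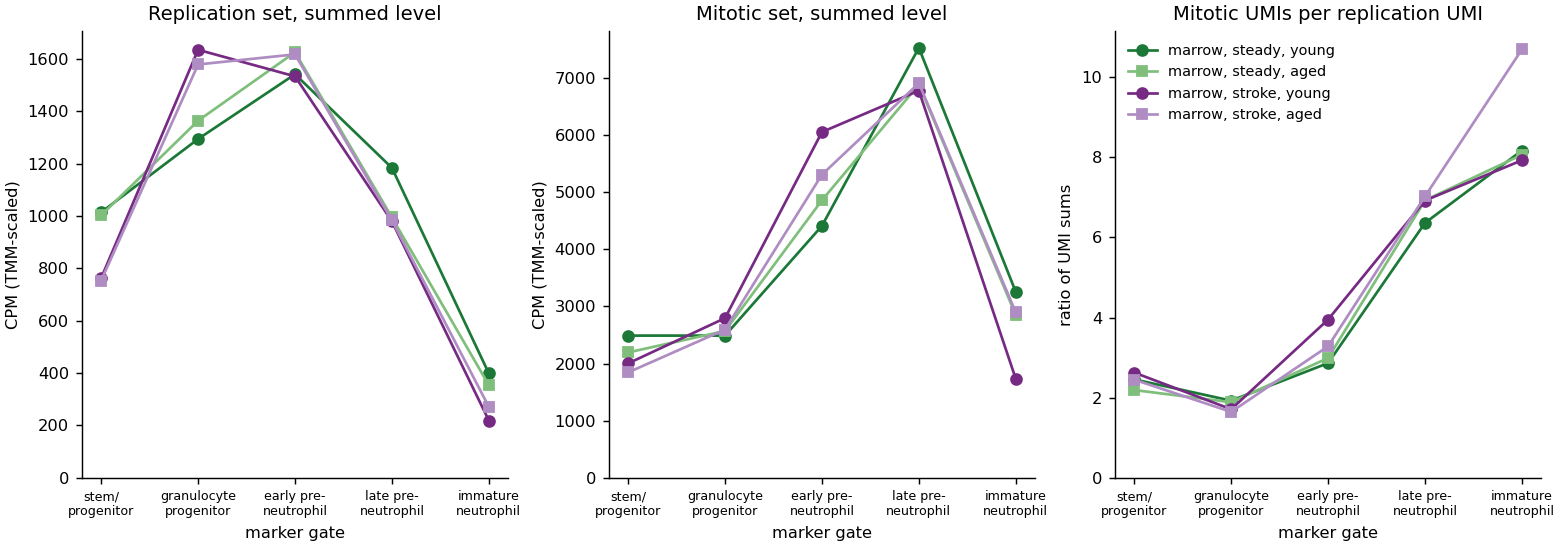
Summed level of the replication set and of the mitotic set (y axes of the first 2 panels, TMM-scaled CPM) and mitotic UMIs per replication UMI (last panel) in the 5 gates of the neutrophil line, 1 line per marrow library. On this TMM scale the mitotic set is highest in late pre-neutrophils in all 4 libraries, and the ratio is lowest in granulocyte progenitors (1.64 to 1.92).

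By single gene, 30 of the 31 mitotic members had their highest level in the early or late pre-neutrophil gate in all 4 libraries, and 11 of the 13 replication members in the granulocyte progenitor or early pre-neutrophil gate in all 4. 18 mitotic members were highest in late pre-neutrophils in every library. Another 12 (Birc5, Bub1, Bub1b, Ccnb1, Ccnb2, Cdc20, Cdca3, Cdca8, Cenpa, Plk1, Tpx2 and Ube2c) were highest there in 3 libraries and in early pre-neutrophils in stroke young, where that gate held 16 cells. Stmn1 was the exception. On plain CPM, without TMM, 28 of 31 mitotic members were highest in a pre-neutrophil gate in all 4 libraries, 10 of them in late pre-neutrophils in all 4, while 9 of 13 replication members were highest in the stem/progenitor or granulocyte progenitor gate in all 4. From late pre-neutrophils to immature neutrophils all 44 members were lower in all 4 libraries under each of the 3 scalings tried (TMM, plain and DESeq2 size factors). How many of all genes peaked in these gates, or were lower at this step, in all 4 libraries was not counted. The member counts of this paragraph therefore have no background to be read against.

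**Figure D2:**
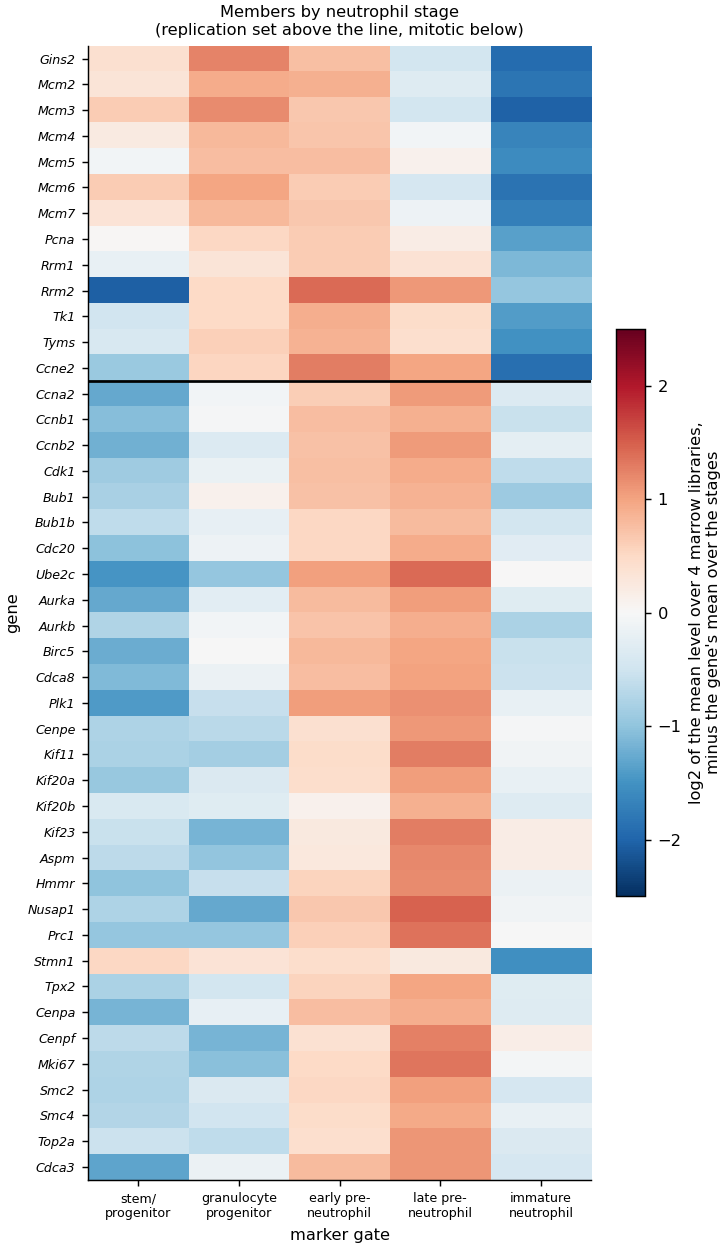
Heat map of the 44 members (rows, replication set above the line) over the 5 gates of the neutrophil line (columns), coloured by the log2 of the mean level over the 4 marrow libraries minus the gene's own mean over the stages. Most mitotic members are highest in late pre-neutrophils, most replication members 1 or 2 stages earlier.

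Mcm6, a subunit of the replicative helicase, was at 187, 176, 185 and 190.0 scaled CPM in granulocyte progenitors. It was at 159, 149, 135 and 134 in early pre-neutrophils, 80.1, 67.3, 55.5 and 72.7 in late pre-neutrophils and 36.4, 33, 17.6 and 16 in immature neutrophils. Mcm6 was thus already lower in late pre-neutrophils than in granulocyte progenitors in every library, with no overlap. Mcm7, another helicase subunit, had the same order, at 176, 180.0, 178 and 166 in granulocyte progenitors and 107, 90.3, 84.1 and 82.9 in late pre-neutrophils. Reads of Mcm7 are uncertain, since 32.7% of the 50-base words at its 3′ ends also occur in other genes, with Gm5487 sharing the most. Mcm3, Mcm6 and Mcm7 were highest in granulocyte progenitors in all 4 libraries under TMM and under size factors, though not on plain CPM.

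Rrm2, the regulated subunit of ribonucleotide reductase, rose from 32.7, 36.6, 20.6 and 19.6 in stem/progenitor cells to 94, 106, 239 and 201 in granulocyte progenitors. It was at 234, 257, 344 and 372 in early pre-neutrophils, 252, 216, 264 and 229 in late pre-neutrophils and 70.7, 61.6, 42.1 and 57.9 in immature neutrophils. Rrm2 in late pre-neutrophils was therefore above granulocyte progenitors within each library, although Mcm6 was below. Rrm1, the large subunit of the same enzyme, was at 105, 112, 102 and 95.7 in granulocyte progenitors, 126, 139.7, 115 and 134 in early pre-neutrophils and 119.6, 107, 113 and 87.4 in late pre-neutrophils. Rrm1 and Tk1, which salvages thymidine, were highest in early pre-neutrophils in all 4 libraries under TMM, and this was lost under size factors and on plain CPM.

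Cdk1, the kinase that drives entry into mitosis, was at 95.2, 104, 109 and 106 in granulocyte progenitors, 228, 204, 226 and 232 in late pre-neutrophils and 82.9, 73.2, 51.1 and 94 in immature neutrophils. Its partner Ccnb2, a B-type cyclin, was at 59.7, 70.7, 107 and 81.2 in granulocyte progenitors, 178, 180.1, 199 and 287 in late pre-neutrophils and 84.3, 71.1, 58.8 and 126 in immature neutrophils. Both were higher in late pre-neutrophils than in either neighbour named here, with no overlap between those gates. Ube2c, the ubiquitin-conjugating enzyme of the anaphase promoting complex, was at 106, 114, 119 and 95.2 in granulocyte progenitors and 527, 490.2, 574 and 673 in late pre-neutrophils. Cdc20, which activates that complex at anaphase, was at 47.9, 50.7, 79.5 and 70.9 and 109, 130.2, 117 and 157 in the same gates. Neither overlapped between the gates.

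The chromosomal passenger complex, which corrects attachment of chromosomes to the spindle, followed the same order. Birc5 was at 129, 138, 232 and 213 in granulocyte progenitors and 359, 312, 384 and 380.5 in late pre-neutrophils, and Cdca8 at 114, 119.9, 143 and 135 and 298, 265, 271 and 304. Cdca3, a trigger of mitotic entry, was at 74.1, 78.6, 105 and 98.8 in granulocyte progenitors and 201, 202, 208 and 233 in late pre-neutrophils. Among the kinesins, Kif11, which pushes the spindle poles apart, was at 47.4, 46.2, 29.7 and 27.7 and 204, 169, 160.1 and 133, and the centromeric motor Cenpe at 51.5, 52.2, 30.2 and 28.7 and 178, 160.5, 93 and 111. None of these 5 genes overlapped between the 2 gates. How many of all genes do not overlap between gates was not counted. The absence of overlap for single members, here and in the other paragraphs, therefore has no background to be read against.

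Top2a, the topoisomerase that untangles sister chromatids, and Mki67, which coats mitotic chromosomes and is the usual marker of proliferation, carry CHR and CCAAT matches in the promoters shown above. Top2a was at 279, 288, 140.3 and 167 in granulocyte progenitors, 823, 708, 754 and 599.6 in late pre-neutrophils and 338, 307, 167 and 236 in immature neutrophils. Mki67 was at 166, 168, 78 and 81.7, 789.8, 712, 559 and 517 and 329, 285, 147 and 213 in the same gates. Immature neutrophils overlapped granulocyte progenitors for both genes, while late pre-neutrophils stood above both. Nusap1, which bundles spindle microtubules, was at 55.3, 53.1, 34.9 and 23.9 in granulocyte progenitors and 289.8, 256, 303 and 269.7 in late pre-neutrophils.

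Stmn1, which destabilises microtubules, did not follow the mitotic set. It was at 328, 305, 723 and 585 in stem/progenitor cells, 274, 233, 634 and 454 in late pre-neutrophils and 96.5, 100.4, 136 and 134 in immature neutrophils. Stem/progenitor cells held the highest level of the line in 3 libraries, and early pre-neutrophils in stroke aged. In each gate the Stmn1 values of the stroke libraries were above those of the steady-state libraries. Reads of Stmn1 are uncertain, since 33.0% of its 3′ words occur in other genes, with Gm11223 sharing the most. The same holds for Ccnb1, with 33.7% in other genes and Gm12856 sharing the most.

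The same order was tested by fitting all genes over 8 gates of the 4 marrow libraries, with the library as a block (edgeR's quasi-likelihood test, Benjamini-Hochberg adjusted p under 0.05). The stages share their libraries, and neighbouring comparisons share a gate. The residual spread is that of gates across libraries of different ages and contexts, not of replicate animals. Early and late pre-neutrophils were fitted as 1 pre-neutrophil gate. All 44 members passed the filter on low counts.

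From stem/progenitor cells to granulocyte progenitors all 13 replication genes and 16 mitotic genes rose and 1 mitotic gene fell, beside 55.4% of all genes called (25.8% higher, 29.6% lower). The median log2 difference was 0.58 over the members and -0.078 over all genes. Rrm2 rose most, by 2.51 ± 0.34 (log2 ± SE, adjusted p = 3.68e-07). Ccne2, the cyclin that starts DNA synthesis, rose by 1.40 ± 0.22 and Ccna2, the cyclin of S and G2 phase, by 1.25 ± 0.24 (adjusted p = 3.66e-06 and 4.78e-05). Birc5 rose by 1.23 ± 0.34 and Cdca3 by 1.21 ± 0.24. The gene that fell was Kif23, the kinesin of the central spindle, at -0.58 ± 0.17 (adjusted p = 0.00373). The remaining 14 mitotic genes were not called, among them Nusap1 at -0.50, Cenpf at -0.45, Mki67 at -0.21 and Top2a at -0.077. TMM raised these differences by a mean of 0.28 over plain CPM, and each member called higher stayed above 0 without that shift. Library by library, 9 mitotic members were lower in granulocyte progenitors in all 4 on plain CPM, against 4 under TMM, and 6 of 13 replication members were lower in none, against 13. All genes were not counted in this way. Without the library block 17 of the 44 members were called here.

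From granulocyte progenitors to pre-neutrophils the sets parted: 30 of 31 mitotic genes rose and none fell, while 2 replication genes rose and 6 fell, beside 64.9% of all genes called (31.4% higher, 33.5% lower). The median over the members was 1.03. TMM raised these differences by a mean of 0.76 over plain CPM. Without that shift the 30 mitotic genes stayed above 0. The 6 replication genes are below 0 without it by construction, since removing it only lowers them. Nusap1 rose by 2.58 ± 0.26 (adjusted p = 6.9e-10), Ube2c by 2.28 ± 0.33, and Cenpf, a kinetochore protein, by 2.27 ± 0.31. Mki67 rose by 2.27 ± 0.28 and Kif23 by 2.23 ± 0.17 (adjusted p = 3.45e-08 and 1.22e-12). The mitotic gene without a call was Stmn1, at -0.027. The replication genes that fell were helicase genes: Mcm3 at -1.15, Gins2 at -1.07, Mcm6 at -0.93, Mcm2 at -0.72, Mcm7 at -0.59 and Mcm4 at -0.53. Those that rose were Rrm2, by 0.76, and Ccne2, by 0.67, which without the shift were at 0.0013 and -0.090. Mcm5 (-0.38), the sliding clamp Pcna (-0.13), thymidylate synthase Tyms (0.048), Rrm1 (0.17) and Tk1 (0.19) were not called.

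From pre-neutrophils to immature neutrophils all 44 members fell, beside 41.5% of all genes called (20.9% higher, 20.7% lower). The median log2 difference was -2.03 in the replication set and -1.22 in the mitotic set, against 0.050 over all genes. Ccne2 fell most, at -3.00 ± 0.28 (adjusted p = 2.79e-09), followed by Rrm2 at -2.17 ± 0.34, Mcm3 at -2.13 ± 0.24, Tyms at -2.12 ± 0.17 and Mcm2 at -2.10 ± 0.26. The smallest falls were those of the spindle pole protein Aspm, at -0.75 ± 0.23 (adjusted p = 0.0102), and Kif23, at -0.84 ± 0.17. The difference between the sets was not itself tested.

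In the erythroid gate 9 replication and 14 mitotic genes were higher than in stem/progenitor cells and 1 mitotic gene was lower, beside 51.3% of all genes called (23.2% higher, 28.2% lower). Cenpa, the histone variant of centromeres, rose by 1.51 ± 0.25 (adjusted p = 1.02e-05), Rrm2 by 1.45 ± 0.34 and Rrm1 by 1.08 ± 0.20. Aspm rose by 0.95 ± 0.23, and Kif23 was lower, at -1.35 ± 0.19 (adjusted p = 5.51e-07). Kif23 was at 54.2, 38.2, 32.6 and 29.5 scaled CPM in stem/progenitor cells and 20.3, 18.1, 15.1 and 7.33 in erythroid cells. In the steady-state libraries alone 37 members were called, and without the library block 11.

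In monocytes 26 mitotic genes were higher than in granulocyte progenitors and none lower, and 6 replication genes (Mcm2, Mcm3, Mcm4, Mcm6, Mcm7 and Gins2) were lower and none higher, beside 55.0% of all genes called (28.1% higher, 26.9% lower). The comparison shares its granulocyte progenitors with the pre-neutrophil comparison. Nusap1 rose by 1.89 ± 0.26 (adjusted p = 2.44e-07), Kif23 by 1.75 ± 0.16, Mki67 by 1.69 ± 0.28, Aspm by 1.54 ± 0.22 and Cenpf by 1.52 ± 0.30. Without the library block 14 members were called. Plasmacytoid dendritic cells entered the fit with no contrast of their own. In them Mki67 was at 631, 599, 227 and 158 scaled CPM and Mcm6 at 229.7, 222, 125 and 164, with both genes lower in the stroke libraries, which held 61 and 34 such cells.

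To count cells rather than sum them, each cell was thinned to 2000 UMIs and called positive for a set with at least 2 of its UMIs. Mitotic-positive cells made up 69.9%, 62.5%, 54.7% and 54% of stem/progenitor cells and 87.6%, 91.6%, 94.8% and 94.8% of granulocyte progenitors. They made up 92.5%, 93.5%, 93.8% and 93.9% of early pre-neutrophils, 73.8%, 65.9%, 72.7% and 77.5% of late pre-neutrophils and 28.1%, 26.2%, 12.6% and 19.3% of immature neutrophils. The TMM-scaled mitotic sum was highest in late pre-neutrophils, but the share of positive cells was highest in granulocyte progenitors and early pre-neutrophils. Replication-positive cells made up 83%, 86.3%, 76.6% and 83.6% of granulocyte progenitors, 40.9%, 32.8%, 36.4% and 27.5% of late pre-neutrophils and 10.1%, 7.91%, 3.36% and 4.83% of immature neutrophils. Cells positive for the mitotic set alone were 14.3%, 12.8%, 20.8% and 15.1% of granulocyte progenitors. They were 35.5%, 35.4%, 36.4% and 52.0% of late pre-neutrophils, above granulocyte progenitors in every library.

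Outside the neutrophil line, mitotic-positive cells were 81%, 76.5%, 75% and 74.2% of erythroid cells and 73.4%, 71.5%, 54.1% and 70.3% of monocytes. In plasmacytoid dendritic cells they were 79.5%, 81.4%, 44.3% and 47.1%. This was the largest gap between the steady-state and the stroke libraries among the erythroid, monocyte and plasmacytoid gates. T and NK cells, a further gate of the fit, had mitotic sums of 3545, 2195, 294 and 413 plain CPM. They made up 0.82%, 0.95%, 7.81% and 9.33% of kept cells in the same libraries. Thinning takes the shares of positive cells to a common depth. Before it, mitotic-positive cells averaged 99.6% of granulocyte progenitors and 48.6% of immature neutrophils over the 4 libraries, against 92.2% and 21.5% after it. The mean number of mitotic UMIs per cell before thinning was 47.6, 65.3, 146 and 122 in granulocyte progenitors, 45.7, 50.4, 138 and 119 in late pre-neutrophils and 15.2, 15.8, 16.1 and 25.7 in immature neutrophils.

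Mature neutrophils of the blood, which do not divide, give the background of these shares. They numbered 1491 cells in the young and 3285 in the aged library, with median depths of 4019 and 4030 UMIs. Replication-positive cells were 0.54% and 0.15% of them, below the lowest marrow value of immature neutrophils (3.4%). Mitotic-positive cells were 10.3% (95% exact binomial interval 8.83 to 12) and 11.3% (10.2 to 12.4), close to the 12.6% of immature neutrophils in the stroke young library. These intervals and those below cover counting error only. 62.1% and 62.7% of those mitotic UMIs came from Kif23, and 25.1% and 22% from Smc4, a condensin subunit. Without these 2 genes the shares were 0.201% (0.0415 to 0.587) and 0.548% (0.325 to 0.865). Cenpa gave another 8.37% and 9.24%, and 39 and 38 of the 44 members were under 5 CPM.

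Kif23 was at 151 and 169 plain CPM in blood mature neutrophils of the young and the aged library, against 98.8, 92.3, 78.6 and 73.1 in marrow late pre-neutrophils and 50.7, 48.1, 25.1 and 26.7 in immature neutrophils. It was at 13 and 10.6 in blood monocytes, and at 4.3 or less in blood T and NK cells. Kif23 was thus higher in both blood libraries than in late pre-neutrophils of any marrow library on this scale. After thinning, 24.5% and 25.9% of blood mature neutrophils had a Kif23 UMI, against 15.5%, 13.3%, 12.7% and 6.86% of late pre-neutrophils. The marrow and blood libraries were sorted in different ways and not scaled together, so these values are set side by side without a test. Smc4 was at 61.1 and 59.3 in blood mature neutrophils. Smc4 overlaps the genes Mir15b and Mir16-2, and no gene of the annotation overlaps Kif23. Mki67 had a UMI in 0.74% and 1.0% of thinned blood mature neutrophils and Top2a in 0.07% and 0.03%.

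**Figure D3:**
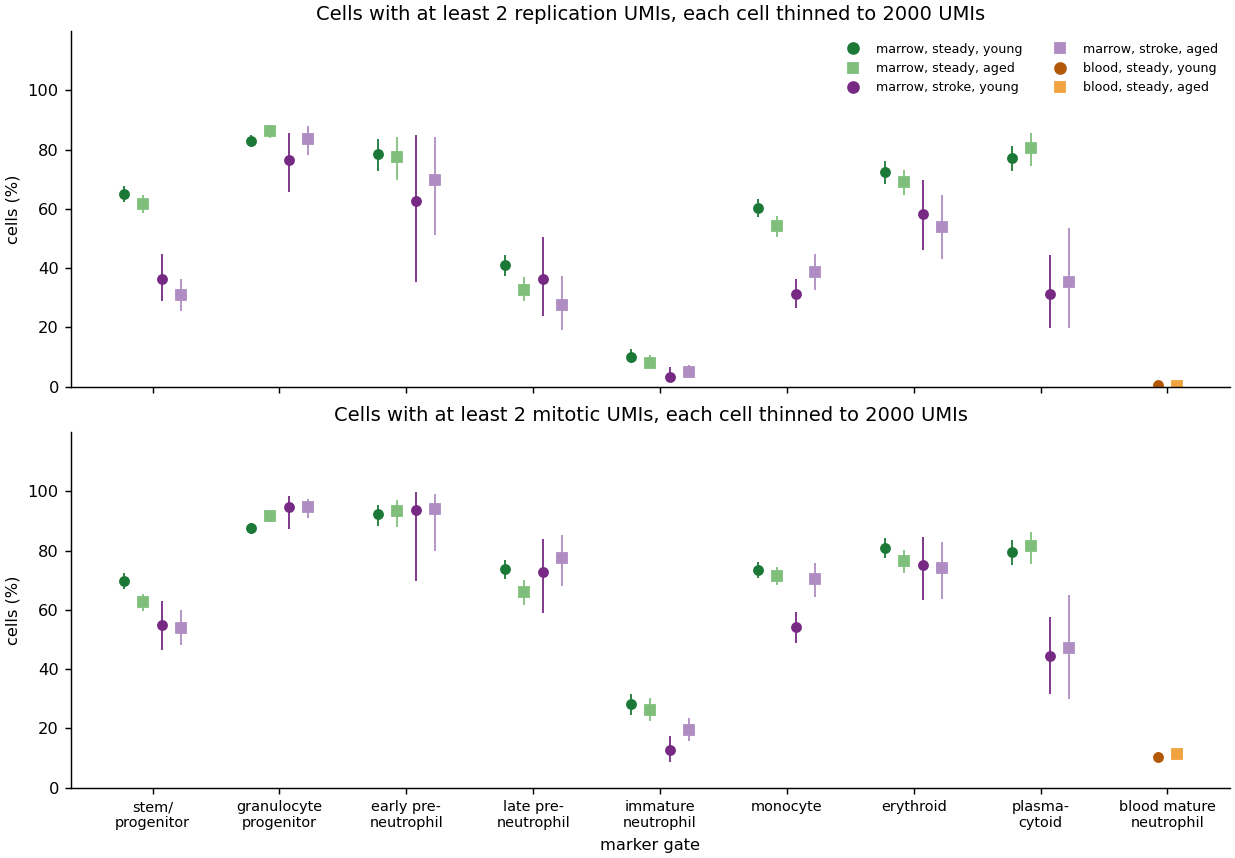
Share of cells (y axis, percent) with at least 2 UMIs of the replication or the mitotic set after each cell was thinned to 2000 UMIs, by marker gate (x axis), 1 point per library with its 95% exact binomial interval. Granulocyte progenitors lie at 87.6% to 94.8% for the mitotic set, and blood mature neutrophils at 10.3% and 11.3%.

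Genes of the same pathways that are not members were counted in the same fits. Of 30 other replication genes, 24 rose and none fell from stem/progenitor cells to granulocyte progenitors. 3 rose and 18 fell from there to pre-neutrophils, and all 30 fell from pre-neutrophils to immature neutrophils. Ung, which removes uracil from DNA, fell by 2.91 ± 0.28 (log2 ± SE) in pre-neutrophils, whereas the histone chaperone Asf1b rose by 2.04 ± 0.22. Of 36 other mitotic genes, 20 rose and 1 fell in granulocyte progenitors, 31 rose and 2 fell in pre-neutrophils, and 35 fell in immature neutrophils. Cdkn3, a phosphatase of Cdk1, rose by 2.46 ± 0.29 and the kinetochore gene Spc25 by 2.39 ± 0.21 in pre-neutrophils. At each of the 3 steps the larger number of called genes in either list had the direction of the larger number in the matching member set. Over all genes 25.8% rose and 29.6% fell at the first step, 31.4% and 33.5% at the second, and 20.9% and 20.7% at the third. The lists were chosen with earlier results of these data known and share libraries and gates with the members. They are therefore no independent check. Without the TMM shift, 1 of the 3 replication and 26 of the 31 mitotic genes that rose in pre-neutrophils were above 0.

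Genes that start and stop the cycle were counted at the step from granulocyte progenitors to pre-neutrophils, at which 31.4% of all genes rose and 33.5% fell. Among 9 G1 cyclins and kinases, 3 rose and 5 fell. The growth regulator Myc fell by 3.03 ± 0.27, Ccnd2 by 2.97 ± 0.36 and Ccnd1 by 2.70 ± 0.41, while their relative Ccnd3 rose by 2.63 ± 0.34. Of 10 cycle inhibitors and pocket proteins that passed the filter, 8 rose and none fell at this step, among them Cdkn2d by 3.33 ± 0.20 and Cdkn1b by 2.21 ± 0.16, both inhibitors of cyclin-dependent kinases. Inhibitors were thus higher in the same gate in which 30 of 31 mitotic genes were higher. Of 12 transcription factors of the cycle 8 rose, 6 of them also above 0 without the TMM shift, and 2 fell, with E2f2 up by 3.80 ± 0.31. From pre-neutrophils to immature neutrophils 9 of these 12 fell.

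Stroke was compared with the untreated state within a gate, over the 2 ages. Each fit rests on 4 libraries and has 1 residual degree of freedom. The quasi-likelihood test draws a gene's spread towards a value shared by all genes of the fit. Its p-values therefore rest largely on that shared value and not on the gene's own variation between ages. The libraries behind it differ in age and are not replicate animals. The stroke libraries also differed in depth per cell, and stroke and library cannot be told apart. Differences are on the TMM scale, on which every member's log2 difference is 0.29 to 0.60 higher, depending on the gate, than on plain CPM. Within 1 age this shift is 0.27 to 0.65, depending on the gate and the age. Members called lower on the TMM scale are below 0 on plain CPM by construction, since removing the shift only lowers them. Of those called higher, 1 of 1 in stem/progenitor cells, 14 of 18 in granulocyte progenitors, 11 of 12 in pre-neutrophils, 1 of 1 in immature neutrophils, 2 of 4 in monocytes and 3 of 7 in erythroid cells were above 0 on plain CPM. Markers of other cells moved with stroke as well. The 4 specific granule genes, which belong to later neutrophils, summed to 828, 766, 166 and 185 plain CPM in stem/progenitor cells and to 911, 907, 2628 and 2269.8 in monocytes, and their part in the differences was not tested. The 6 gates come from the same 4 libraries.

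In stem/progenitor cells 32 members fell after stroke and 1 rose, beside 31.9% of all genes called (16.8% higher, 15.1% lower). Mki67 was at 353, 344, 137 and 125 scaled CPM and fell by 1.42 ± 0.10 (log2 ± SE, adjusted p = 8.59e-18). Aspm fell by 1.47 ± 0.20, Cenpe by 1.17 ± 0.13 and Cenpf by 1.17 ± 0.11. The gene that rose was Stmn1, at 523, 477, 1162 and 926, by 1.05 ± 0.095. Both stroke libraries lay apart from both steady-state libraries for Mki67 and for Stmn1, in opposite directions. DESeq2's test called 11 members here, and the fit on thinned cells 18.

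In granulocyte progenitors 18 members rose and 14 fell, beside 49.0% of all genes called (25.8% higher, 23.1% lower). 7 replication genes rose and none fell, while 11 mitotic genes rose and 14 fell. Rrm2 was at 126, 141, 321 and 261 and rose by 1.12 ± 0.12 (adjusted p = 1.2e-20). Mki67 was at 221, 224, 105 and 106 and fell by 1.08 ± 0.12. Stmn1 rose by 1.11 ± 0.11, Cenpf fell by 1.11 ± 0.13 and Nusap1 fell by 0.94 ± 0.13. The stroke libraries held 77 and 232 granulocyte progenitors, which were 246 and 355 at a minimum of 500 UMIs per cell. DESeq2's test called 21 members, and the fit on thinned cells 6.

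In pre-neutrophils 12 members rose and 12 fell, beside 28.0% of all genes called (16.3% higher, 11.7% lower). Stmn1 was at 214, 189, 541 and 419 and rose by 1.24 ± 0.11 (adjusted p = 3.62e-12). Ccnb2 rose by 0.61 ± 0.11, and Aspm, Cenpe and the kinesin Kif20b fell by 0.68 ± 0.15, 0.55 ± 0.11 and 0.53 ± 0.12. DESeq2's test called 3 members and the fit on thinned cells 1. In immature neutrophils 1 member rose and 23 fell, beside 27.2% of all genes called (14.5% higher, 12.7% lower). Mcm7 fell by 0.97 ± 0.20 and Cenpe by 0.84 ± 0.17 (adjusted p = 2.78e-05 and 1.25e-05). DESeq2's test called 3 members there, the fit on thinned cells 8.

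In monocytes 4 members rose and 19 fell, beside 44.8% of all genes called (23.7% higher, 21.2% lower). Kif23 was at 145, 126, 61.2 and 60.2 and fell by 1.16 ± 0.13 (adjusted p = 2.21e-05). Both stroke libraries were below both steady-state libraries. In erythroid cells 7 members rose and 15 fell, beside 28.0% of all genes called (16.9% higher, 11.1% lower). The summed mitotic set of erythroid cells differed by -0.13 in young and -0.031 in aged mice, and the replication set by 0.18 and 0.014. Cenpf was at 141, 111, 49.8 and 57.3 and fell by 1.22 ± 0.14 (adjusted p = 3.05e-05), and Rrm2 was at 84.8, 67.6, 179.7 and 101 and rose by 0.85 ± 0.13. DESeq2's test and the fit on thinned cells called 5 members each in erythroid cells, and 16 and 22 in monocytes.

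Across the 6 gates, Stmn1 rose in every one, by 0.46 to 1.24 on the TMM scale, which is 0.071 to 0.95 on plain CPM. Aspm (-1.47 to -0.68), Cenpe, Cenpf, Kif20b, Mki67 (-1.42 to -0.36), the condensin gene Smc2 and Tpx2, which nucleates spindle microtubules, fell in every one. Another 11 members rose in some gates and fell in others. How many of all genes rose or fell in every gate, or in both directions, was not counted. These member counts therefore have no background to be read against. Of the 30 other replication genes, 16 rose and 3 fell in granulocyte progenitors, and 2 rose and 15 fell in stem/progenitor cells. Over all genes 25.8% rose and 23.1% fell in granulocyte progenitors, and 16.8% rose and 15.1% fell in stem/progenitor cells. Of the 36 other mitotic genes, 10 rose and 11 fell in granulocyte progenitors, near those shares, and 3 rose and 18 fell in stem/progenitor cells. Outside the members, Cks2, a small subunit of cyclin-dependent kinases, and Hmgb2, a chromatin protein, rose in all 6 gates, by 1.53 to 1.86 and by 0.95 to 1.72.

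Stroke differences were lower for members with longer transcripts. Spearman's correlation between the stroke difference and the length of the longest coding transcript, across the 44 members, was -0.63 in stem/progenitor cells, -0.70 in granulocyte progenitors, -0.71 in pre-neutrophils, -0.59 in immature neutrophils, -0.72 in monocytes and -0.69 in erythroid cells. Over all genes with a length it was -0.42, -0.41, -0.39, -0.22, -0.44 and -0.40 in the same gates. These values describe genes that share their libraries, depth and gates, and genes are not independent replicates. Within each age alone the members' values ran from -0.42 to -0.73.

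In granulocyte progenitors 15 of the 22 shorter members (up to 3376 bases) rose and 2 fell, while 3 of the 22 longer members rose and 12 fell. In pre-neutrophils 12 shorter members rose and 2 fell, while none of the longer rose and 10 fell. All genes with a length split in the same direction. In granulocyte progenitors their median log2 stroke difference was 0.32 below about 1942 bases and -0.42 above about 4580. In pre-neutrophils it was 0.20 below about 1924 bases and -0.30 above about 4590. The split is thus not particular to the members. Shares of all short or long genes called are not given here. Stmn1, with 1060 bases, is among the shortest members. The 7 genes that fell in every gate are among the 22 longer members. Cenpf has 11130 bases, Mki67 10061, Aspm 9867, Cenpe 7910, Kif20b 5564, Smc2 5404 and Tpx2 4365. The correlation of length with the age difference ran from -0.23 to 0.16 in the fits over both contexts. Within 1 context it reached -0.33 (steady state) and 0.42 (stroke) in granulocyte progenitors and -0.42 in steady-state immature neutrophils. Differences between gates varied with length too. The members' correlation was -0.59 for granulocyte progenitors and -0.29 for erythroid cells, each against stem/progenitor cells. Against granulocyte progenitors it was 0.29 for pre-neutrophils and 0.22 for monocytes, and for immature neutrophils against pre-neutrophils 0.36. The part of transcript length, depth or library handling in the stroke or gate differences was not tested.

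**Figure D4:**
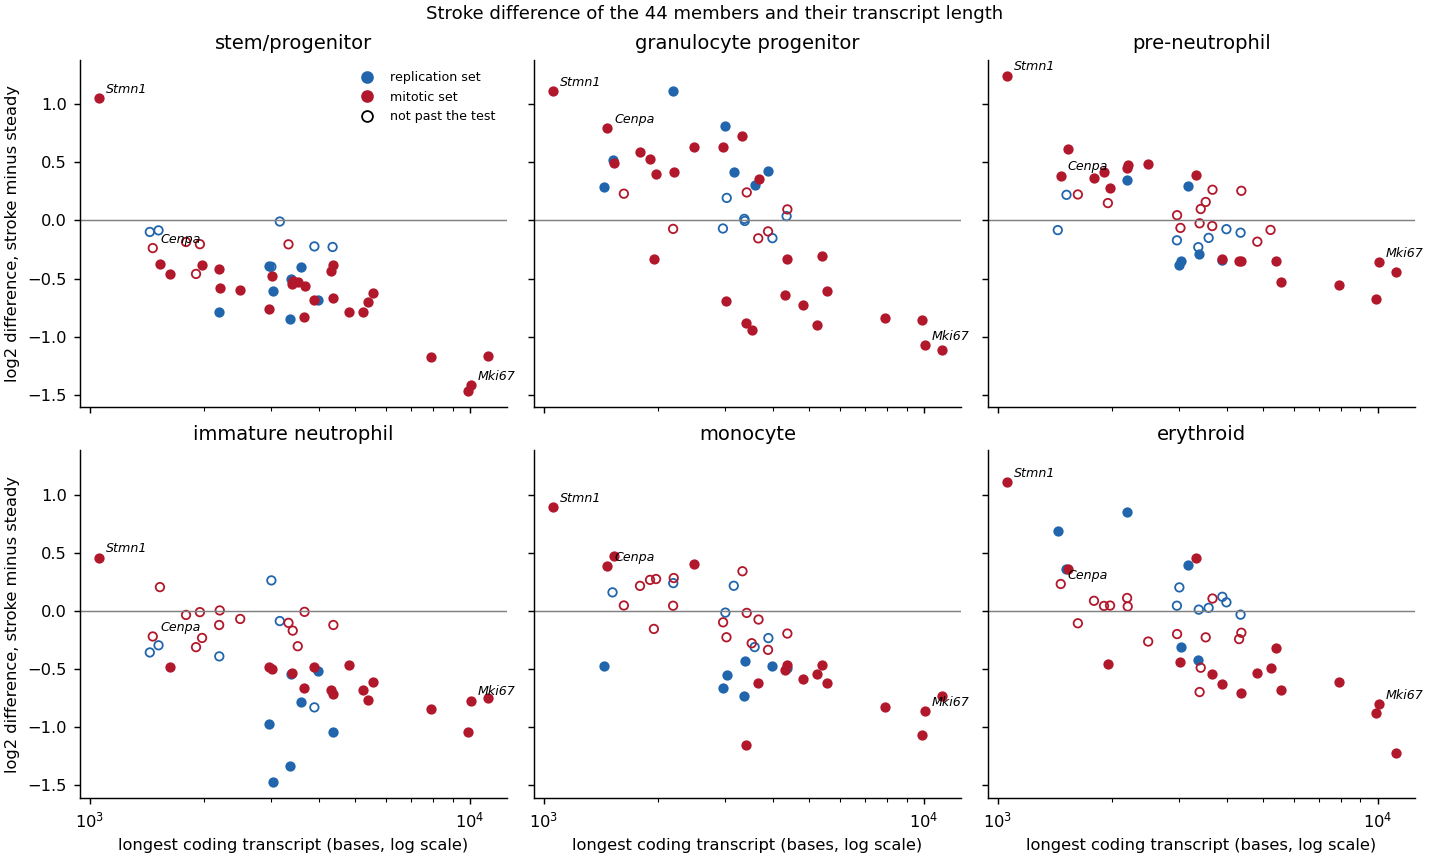
Log2 stroke difference of each of the 44 members (y axis, stroke minus steady state, TMM scale) against the length of its longest coding transcript (x axis, bases, log scale) in 6 gates, coloured by set, with open circles for members that did not pass the test. Longer members tend to lie lower, with Spearman's correlation from -0.59 to -0.72.

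Age was compared in the same fits, aged minus young over the 2 contexts. In stem/progenitor cells 1 member, Ccnb2, fell with age, beside 4.88% of all genes called (2.04% lower). Ccnb2 was at 89.6, 67.3, 71.7 and 50.2 scaled CPM, lower in the aged library of each context, and its difference was -0.45 ± 0.12 (adjusted p = 0.0122). Both aged libraries were below both young ones. The call was lost with DESeq2, with raised marker thresholds and on thinned cells. In the other 5 gates edgeR called none of the members, beside 0.506% of all genes called in granulocyte progenitors, 0.346% in pre-neutrophils, 0.366% in immature neutrophils, 0.0903% in monocytes and 0.109% in erythroid cells. At an unadjusted p under 0.05 there were 12 members in stem/progenitor cells, 2 in granulocyte progenitors, 1 in pre-neutrophils, 5 in immature neutrophils, 0 in monocytes and 16 in erythroid cells. Over all genes the shares at that threshold were 13.2%, 4.16%, 4.33%, 5.56%, 4.58% and 4.7% in the same gates. DESeq2's test called 0 members in each of the 6 gates. The 16 erythroid members were all lower in aged cells, with Aurka, a kinase of the spindle poles, at -0.75 and Plk1, a kinase of mitotic progression, at -0.66.

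The age difference of a set was not the same in the 2 contexts in every gate. In immature neutrophils the mitotic set differed by -0.20 (-0.25 to -0.16) in the steady-state libraries and by 0.68 (0.63 to 0.74) in the stroke libraries (log2, aged minus young, TMM scale, with 95% intervals that cover counting error only). The replication set of the same cells differed by -0.18 (-0.31 to -0.063) and 0.25 (0.093 to 0.41). The 5 azurophil granule genes of these cells, which mark earlier stages, summed to 431, 418, 81.3 and 192 plain CPM, lowest in stroke young as were both sets, and their part was not tested. In granulocyte progenitors the replication set differed by 0.074 (0.053 to 0.096) and -0.095 (-0.14 to -0.054) in the same order. In stem/progenitor cells the mitotic set was lower in aged cells in both contexts, at -0.21 (-0.23 to -0.19) and -0.14 (-0.18 to -0.095). The same was so in erythroid cells, at -0.22 (-0.24 to -0.20) and -0.12 (-0.17 to -0.067). With 1 library per age and context these differences have no replicate check.

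**Figure D5:**
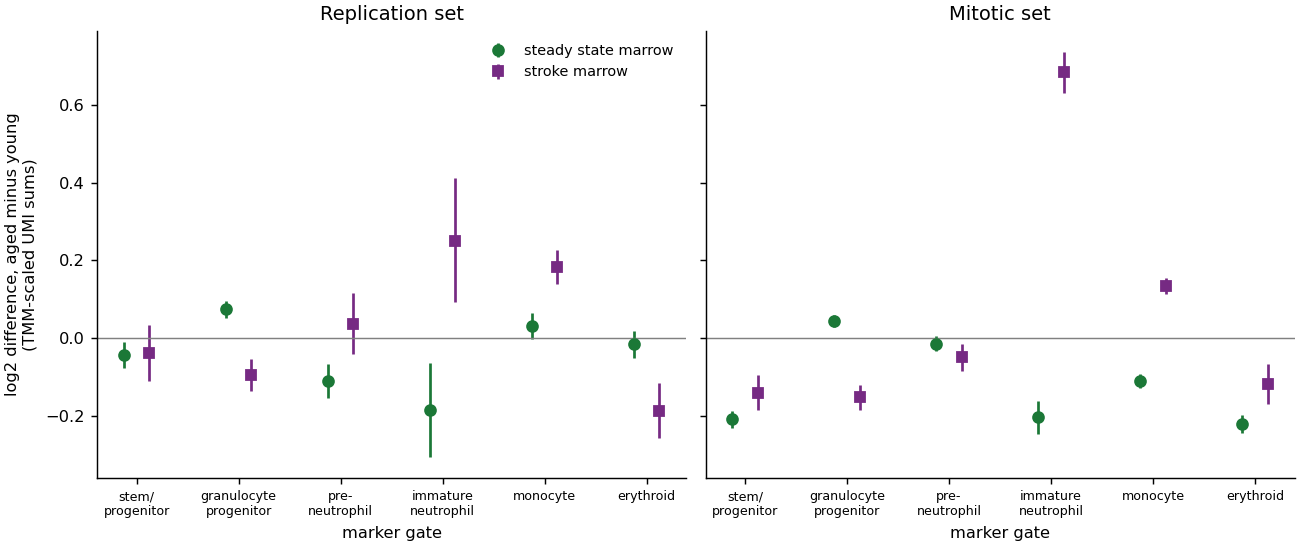
Log2 difference, aged minus young, of the TMM-scaled UMI sum of each set (y axis) in 6 gates (x axis), within the steady-state and within the stroke libraries. Bars are 95% intervals that cover counting error only. The mitotic set of immature neutrophils lies at -0.20 in steady state and 0.68 after stroke.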

How the data were processed

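All 6 libraries share 1 deposited table, whose values are unnormalised UMI counts, and the labels tie each barcode to a library. Per the submitters' processing notes the tools included Cell Ranger 3.0.2, UMI-tools, STAR 2.5.3a and featureCounts 1.6.4, with the GRCm38 build, and their order and settings are not given in the sources used here. Members and pathway lists were chosen with earlier results of these data known. Barcodes under 2000 UMIs, under 200 genes or above 10% mitochondrial UMIs were left out, and those with a simulated-doublet score above 0.25 were removed (3.57%, 3.19%, 0.626% and 0.829% of marrow cells, 0.694% and 1.73% of blood cells). The 2000 UMI minimum and the marker thresholds of the gates were set after depth and marker levels were seen, with at least 3 marker UMIs required per gate. UMI counts were summed per library and gate and fitted with edgeR 4.0.16 (TMM, filterByExpr, quasi-likelihood) in R 4.3.3, over all genes, with Benjamini-Hochberg adjustment over every gene tested. DESeq2 1.42.0 served as an alternative. The library was a block in the comparisons of gates. In simulated counts for pre-neutrophils against granulocyte progenitors (12659 genes) 91% of 2-fold and 100% of 4-fold changes were recovered, and for age in granulocyte progenitors (13170 genes) 99% and 100%. False calls numbered 12 and 18. The simulated libraries shared a single pooled profile with no other gate, library or stroke differences, and only genes above a low level were changed. The shares recovered therefore do not give the power of the real fits.

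All 44 members may be named. Of each role the 2 with the highest mean level are given in every library, and of each comparison the 5 called members with the largest difference at a mean of at least 20 CPM. Of a pathway list at most 4 called genes are named by the same order. Members singled out beside these (Kif23 and Smc4 in blood, and members near 0) were chosen after their values were seen. 22 of the 44 members overlap another annotated gene and 9 one on the same strand, and the notes do not say whether counting used strand. Marker sums were taken per 10000 UMIs. The 95% intervals of shares are exact binomial and those of sums Poisson.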

Additional observations from a re-analysis of the deposited data

Results flagged for a closer look

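5 sums over a set had age differences of opposite sign in the 2 contexts, with both counting intervals clear of 0. Values here are log2, aged minus young, on plain CPM, first in steady state and then after stroke, and with 1 library per age and context none of the differences between contexts was tested. The mitotic set of immature neutrophils was at -0.22 and 0.67, and their replication set at -0.20 and 0.23. In granulocyte progenitors the replication set was at 0.082 and -0.10 and the mitotic set at 0.052 and -0.15. The mitotic set of monocytes was at -0.12 and 0.14. The stroke young library held 238 immature neutrophils and the stroke aged library 414, and their mitotic-positive shares after thinning were 12.6% and 19.3%.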

How the results depend on the processing

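Comparisons of gates kept the direction of the members' median under each alternative tried, and 65 of 70 alternative counts of called members stayed within 1.5 times the reported one. Without the library block 17 members were called in granulocyte progenitors against stem/progenitor cells, 11 in erythroid cells and 14 in monocytes, and erythroid cells gave 14 on thinned cells and 37 in the steady-state libraries alone. Leaving out 1 library gave 21 to 30 calls for granulocyte progenitors, 35 to 38 for pre-neutrophils, 42 to 44 for immature neutrophils, 18 to 24 for erythroid cells and 28 to 33 for monocytes. These are counts of members only, and shares of all genes called under the alternatives are not given here or below.

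Stroke counts were the least stable. With DESeq2's test and then on thinned cells they were 11 and 18 in stem/progenitor cells, 21 and 6 in granulocyte progenitors, 3 and 1 in pre-neutrophils, 3 and 8 in immature neutrophils, and 5 and 5 in erythroid cells, and immature neutrophils gave 15 with size factors and 14 with a minimum of 500 UMIs per cell. The members' median in granulocyte progenitors after stroke, 0.066 on the log2 scale, turned to -0.036 without the filter, -0.089 on thinned cells, and -0.22 in young and -0.38 in aged mice alone, where ratios were not TMM-scaled. In pre-neutrophils it turned from -0.056 to 0.031 with doublets kept. The causes were not tested. The age call in stem/progenitor cells was lost with DESeq2, with raised marker thresholds and on thinned cells (0 members), and 5 erythroid members were called without the filter and with doublets kept.

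Mean mitotic-positive shares without thinning, with 1 UMI sufficing and with 5 required were 90.4%, 80.2% and 27.1% in stem/progenitor cells, 99.6%, 98.3% and 62.3% in granulocyte progenitors, 89.2%, 85.1% and 62.1% in pre-neutrophils and 97.7%, 90.2% and 43.6% in erythroid cells. Without thinning, with 1 UMI and with 5, monocytes had 84.0%, 77.8% and 53.4%, and immature neutrophils 48.6% and 40.8% under the first 2. Raised marker thresholds gave 85.4% in pre-neutrophils, 31.5% in immature neutrophils and 80.3% in erythroid cells, and leaving out Kif23 and Smc4 (an alternative chosen after seeing the data) 71.8% in erythroid cells. Leaving out 1 library gave shares of 57.1% to 62.4% in stem/progenitor cells, 91.3% to 93.7% in granulocyte progenitors, 75.8% to 79.1% in pre-neutrophils, 19.4% to 24.5% in immature neutrophils, 65.3% to 71.7% in monocytes and 75.2% to 77.5% in erythroid cells.

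The ratio of mitotic to replication UMIs moved to 2.02 in stem/progenitor cells and 1.62 in granulocyte progenitors without Stmn1 and Pcna. Without Kif23 and Smc4 it was 2.23, 1.65, 4.74 and 3.92 in stem/progenitor cells, granulocyte progenitors, pre-neutrophils and monocytes, and with raised thresholds 4.70 in pre-neutrophils and 4.54 in monocytes. Without 1 library it ran from 2.36 to 2.51, 1.75 to 1.84, 5.05 to 5.28, 8.05 to 8.98, 4.12 to 4.34 and 1.95 to 2.10 in stem/progenitor cells, granulocyte progenitors, pre-neutrophils, immature neutrophils, monocytes and erythroid cells. The minimum of 500 UMIs, the fits on 1 context and those within 1 age were also chosen after seeing the data.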
